A study of Mus musculus with 4 samples.

Results

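Dense clusters of distal open regions were runs of neighbouring stretches of open chromatin that lie away from gene ends in mouse salivary gland organoids (mSGOs). They were taken from 1 deposited list of 32011 distinct open regions, made by bulk ATAC-seq, in which the Tn5 transposase cuts DNA that is not covered by packed nucleosomes. A region was called distal when its midpoint lay over 1 kb from both ends of every gene in a GRCm38 gene table. Distal regions were joined into a chain when neighbouring midpoints were at most 12500 bp apart, and a chain of 5 or more regions was called a cluster. On the 19 autosomes this left 179 clusters, which held 1009 of 21406 distal regions (4.71%, 95% Wilson interval 4.44 to 5.01, counting error only). These counts follow from the rule and were not tested.

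The organoids were grown from submandibular salivary glands of non-irradiated female C57BL/6 mice, in Matrigel and a medium (WRY) with EGF, FGF2, R-spondin1 and Wnt3a. The labels list 4 samples: 2 of passage 1 and 2 of passage 2, with 1 mouse of 12 weeks and 1 of 3 months in each passage. These ages are close to each other, and whether they mark batches is not stated. All samples share the culture, none was treated, and the list gives no value per sample, so passages could not be compared and the depth and replicate spread are unknown. The fold given for each region below is the signal over local background at its strongest summit, as the authors' peak caller wrote it.

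Distal open regions are often enhancers, stretches bound by transcription factors that act on a promoter at a distance. Groups of such elements that lie close together are known from genes that define a cell type, although an element need not act on the gene nearest to it. Salivary gland ducts hold basal and luminal cells, and progenitor cells of the gland are thought to lie among them.

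Sequence could be shown only where a clustered region reached an annotated start inside a gene, because the reference at hand gives promoter windows alone for GRCm38. Such internal starts can begin shorter transcripts and are not gene ends, so the rule left them in. Of 993 clustered regions on chromosomes with windows, 33 had their midpoint within 1 kb of an annotated start (3.32%, 95% Wilson interval 2.38 to 4.63), against 933 of 19649 other distal regions (4.75%, 4.46 to 5.05). The sequences below (RefSeq, GRCm38.p6, 5′ to 3′ on the strand of the gene) are the bases before such a start that the open region covered. The first comes from the strongest of these regions, the next pair from the genes with the most matches, and the last from a cluster beside an AP-1 gene. Capitals mark matches on either strand to the letters of 10 motifs: AP-1 TGANTCA, TEAD GGAATG, RUNX TGTGGT, KLF CCNCNCCC, NF-Y CCAAT, AP-2 GCCNNNGGC, SOX ACAANG, FOX TGTTTAC, GRHL AACNNGTT and ETS GGAAGT. Matches that overlap run together.
Sgms1, chr19:32211014-32211207, minus strand: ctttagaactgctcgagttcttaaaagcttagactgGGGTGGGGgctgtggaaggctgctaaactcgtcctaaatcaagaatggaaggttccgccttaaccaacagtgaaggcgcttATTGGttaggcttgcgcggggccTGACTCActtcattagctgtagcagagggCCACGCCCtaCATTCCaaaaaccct
Kat2b, chr17:53583876-53584125, plus strand: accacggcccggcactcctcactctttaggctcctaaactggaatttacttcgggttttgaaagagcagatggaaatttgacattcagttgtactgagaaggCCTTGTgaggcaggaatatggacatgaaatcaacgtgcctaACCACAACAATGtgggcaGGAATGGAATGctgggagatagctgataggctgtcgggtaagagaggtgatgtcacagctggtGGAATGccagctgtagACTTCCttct
Ppfibp1, chr6:146888277-146888493, plus strand: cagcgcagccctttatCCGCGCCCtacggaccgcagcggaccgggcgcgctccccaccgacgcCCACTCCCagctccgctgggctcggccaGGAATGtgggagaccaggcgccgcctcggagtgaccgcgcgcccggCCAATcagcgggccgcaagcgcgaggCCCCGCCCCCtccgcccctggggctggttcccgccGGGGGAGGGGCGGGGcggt
Ercc1, chr7:19344951-19345070, plus strand: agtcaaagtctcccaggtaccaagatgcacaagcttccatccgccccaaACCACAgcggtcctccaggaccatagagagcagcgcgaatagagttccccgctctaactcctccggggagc

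The Sgms1 sequence, from a sphingomyelin synthase gene, held 5 matches, among them an AP-1 match, and its region had a fold of 12.9. In Kat2b, the gene of a histone acetyltransferase, 7 matches fell to TEAD, RUNX, SOX and ETS letters, and the region had a fold of 6.06. The sequence of Ppfibp1, a liprin gene, was 78.3% G and C and held 9 matches to KLF, NF-Y and TEAD letters, with a fold of 8.44. A single RUNX match lay in the Ercc1 sequence, whose region had a fold of 7.11 and closed the cluster at Fosb.

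Over whole windows of 300 bp, 26 touched a clustered region and 814 touched another distal region, out of 31223 different windows. The ETS letters occurred in 11 of the 26 (42.3%), against 26.2% under other distal regions and 23.8% of all windows. TEAD letters occurred in 6 (23.1%, against 13.3% and 14.6%), KLF letters in 16 (61.5%, against 66.1% and 49.9%), and AP-1 letters in 2 (7.69%, against 6.88% and 7.83%). NF-Y letters were in 7 (26.9%, against 39.7% and 37.2%), AP-2 letters in 5 (19.2%, against 22.5% and 16.8%) and SOX letters in 9 (34.6%, against 32.9% and 40.9%). RUNX letters were in 5 (19.2%, against 14.1% and 16.7%) and GRHL letters in 1 (3.85%, against 4.42% and 4.19%). FOX letters were in none of the 26, against 3.32% and 3.71%. The median G and C content was 56.5%, 60% and 53% in the same order. These are descriptions of letters in a few windows, and the factors themselves were not measured.

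The number of chains fell steadily with size. There were 11086 lone distal regions, 2764 chains of 2, 857 of 3 and 303 of 4, and then 113 clusters of 5, 41 of 6, 14 of 7 and 7 of 8. Chains of 9, 10, 12 and 13 regions occurred 1 time each. Just outside the threshold, chains of 4 had a median span of 16.5 kb and a median fold of 6.73 over their regions, whereas chains of 5 had 22.003 kb and 6.43. In 36 chains of 4, a further distal region lay less than 15 kb away, the closest at 12.562 kb, so that the line between chains of 4 and clusters is a convention.

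**Figure D1:**
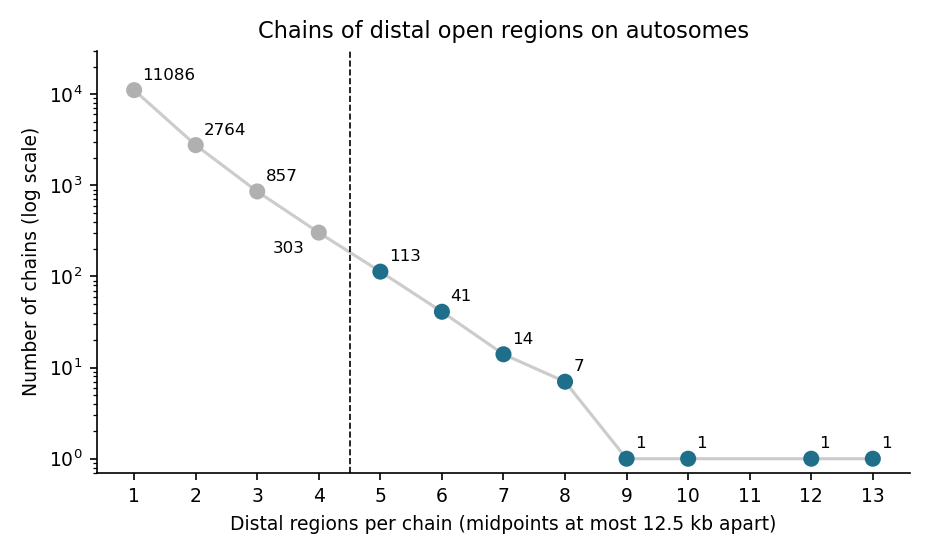
Number of chains on autosomes (log scale) by the number of distal regions in each, with clusters in blue right of the dashed line. The counts fall from 11086 lone regions to 113 clusters of 5 and to 1 chain each of 9, 10, 12 and 13 regions.

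Clusters spanned a median of 24.9 kb (quartiles 18.1 and 31.9), from 2.02 kb to 54.6 kb, and together covered 4.58 Mb. Open regions took up a median of 9.29% of the span. Midpoints within a cluster were a median of 5.23 kb apart (quartiles 2.17 and 8.37). The shortest cluster, chr16:3349898-3351913, held 5 regions with folds of 4.66, 5.72, 6.55, 14.7 and 5.84, and lay 240 kb from its nearest protein-coding gene, the olfactory receptor gene Olfr161. The share of distal regions that lay in clusters ranged over chromosomes from 2.09% to 7.78%, the highest on chromosome 16. On the X chromosome, which the rule leaves out, 383 distal regions formed no chain longer than 3.

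**Figure D2:**
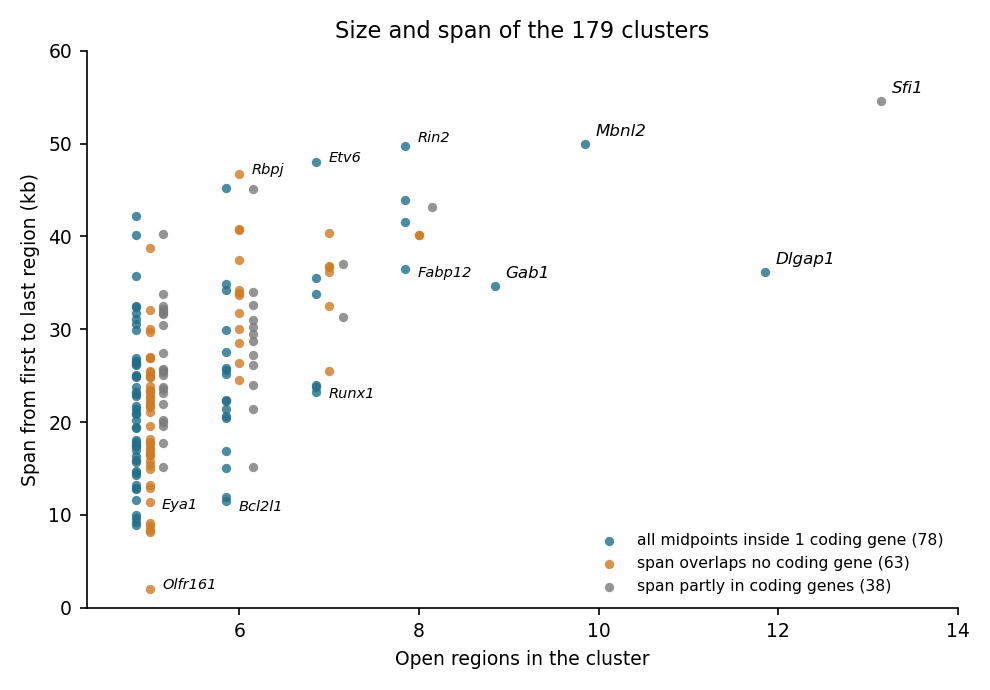
Span (kb) of each of the 179 clusters against its number of open regions, with colours for position relative to protein-coding genes. Most clusters have 5 or 6 regions, and the Sfi1, Mbnl2, Rin2 and Etv6 clusters have the longest spans.

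Relative to protein-coding genes, 78 clusters lay with every midpoint inside 1 gene (43.6%, 95% Wilson interval 36.5 to 50.9). Another 63 overlapped no such gene (35.2%, 28.6 to 42.4), and 38 were mixed. Genes that held a whole cluster had a median length of 154 kb, and the rule asks for length here, since such a gene must be longer than the cluster it holds. Clusters between genes were a median of 30.1 kb from the nearest gene (quartiles 13.04 and 61.7). The farthest, 397 kb away, was the cluster of 7 nearest to Tbl1xr1, a gene of a corepressor subunit. Among single regions, 54.8% of those in clusters had their midpoint in a protein-coding gene (95% Wilson interval 51.7 to 57.9), and so did 50.6% of the other distal regions (50.0 to 51.3).

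At the main setting, the cluster with most regions lay at Sfi1, which encodes a centrosome protein, on chr11:3126937-3181517. Of its 13 midpoints 10 lay in the gene. The regions had the lowest median fold of all 179 clusters, 3.34 (range 2.20 to 4.26), while the next lowest cluster stood at 4.24. Their median −log10 q was not low, at 27.9 against 25.95 over all clustered regions. The Sfi1 cluster held 34 summits, and 6 further regions near gene ends lay within its span. It thus stood apart from the other clusters in its values. Without the 14 clusters whose median fold was under 5, this one included, 165 clusters with 926 regions were left.

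The second largest cluster held 12 regions over 36.2 kb inside Dlgap1, a gene of a postsynaptic scaffold, on chr17:70719872-70756046. Folds ranged from 3.48 to 12.54 with a median of 5.29, and the 2 strongest regions, of 10.5 and 12.54, lay at one end of the cluster. The gene whose 5′ end was nearest to its centre was another, Tgif1, a homeodomain repressor of TGF-beta responses, 116 kb away. With only the better-ranked regions of the list by q-value (below the median), this cluster still held 8 regions, the most of any. Its longest chain held 7, 17 and 12 regions with links of 5 kb, links of 25 kb and distal set at 2 kb. The longest chain at Sfi1 held 5, 13 and 10 regions at these settings and 4 in the better-ranked list. Sfi1 thus lost its first place at each of these settings. Regions left in shorter chains are not in these counts.

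Mbnl2, a regulator of alternative splicing, held 10 regions on chr14:120292717-120342629, with folds from 4.28 to 10.7 and a median of 6.18. Gab1, an adaptor protein downstream of receptor tyrosine kinases such as the EGF receptor, held 9 regions on chr8:80835708-80870368, with folds from 4.43 to 9.20 and a median of 6.26. In both genes every region of the cluster lay inside the gene, and the outermost 5′ end was open too, with a fold of 12.1 at Mbnl2 and 7.07 at Gab1.

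Of the 7 clusters of 8 regions, the one in Fabp12, a fatty acid binding protein gene next to Fabp4, had the highest median fold, 8.78 (range 3.89 to 16.4, chr3:10258287-10294780). The cluster in Fmnl2, a formin that builds actin filaments, followed with 7.90 (5.09 to 10.3, chr2:52938201-52979772). Rin2, an exchange factor for RAB5, held 8 regions over 49.7 kb with a median fold of 7.66 (4.77 to 10.4, chr2:145822839-145872527). The cluster at Cdcp1, a membrane protein phosphorylated by SRC kinases, had a median of 7.001 (5.45 to 11.5, chr9:123201270-123244469). It was mixed, with 3 of its 8 midpoints in the gene. In Akap13, an anchoring protein for kinase A, the median was 6.68 and 2 regions stood out at 13.99 and 13.6 (chr7:75575246-75619191). The other 2 lay between genes. One was 46.6 kb from Chd2, a chromatin remodeller, with a median fold of 6.84 (4.91 to 10.2, chr7:73588347-73628496). With distal set at 2 kb the longest chain left of this cluster held 4 regions, fewer than the 5 a cluster needs. The other was 102 kb from Serp2, a gene of an endoplasmic reticulum stress protein, with a median of 6.46 and a last region of 15.6 (chr14:76659051-76699207).

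**Figure D3:**
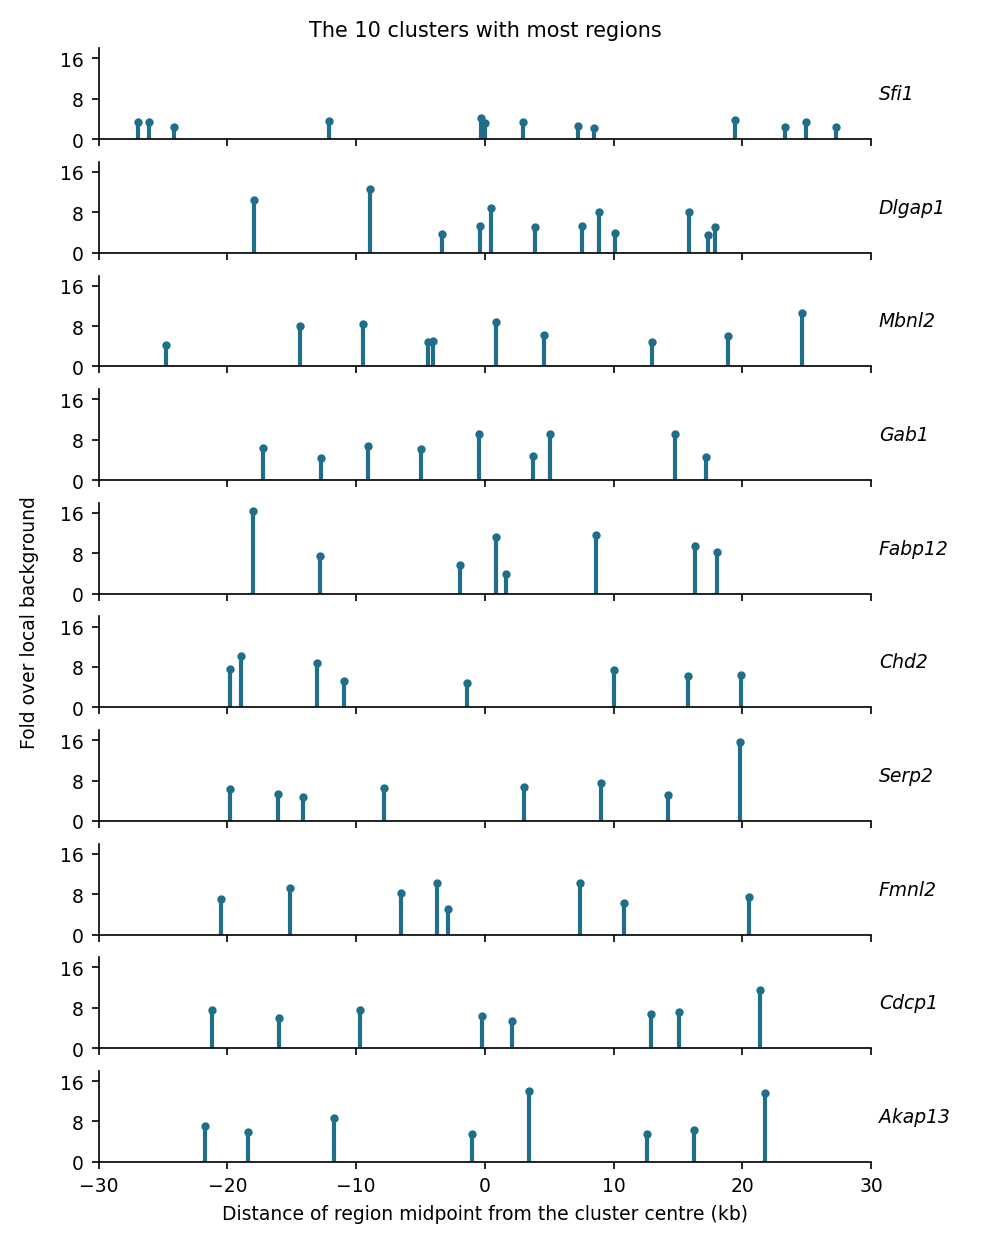
Fold over local background of each region in the 10 clusters with most regions, by distance (kb) of its midpoint from the cluster centre, with 1 stem per region. Ties were ordered by shorter span, so Rin2, which also held 8 regions, came after these. Stems in the Sfi1 cluster reach at most 4.26, whereas single stems in the Fabp12 and Serp2 clusters reach 16.4 and 15.6.

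To relate the clusters to salivary gland biology, lists of genes were read against the nearest protein-coding gene of each cluster. The 179 clusters had 178 different nearest genes, since only Ahnak had 2 clusters, and this was 0.862% of 20661 autosomal protein-coding genes. That share is the background for each list count at the main setting below. Long genes hold more sequence in which a chain can fall, and length was not matched in these counts, whose lists are small. For 132 of 179 clusters, the nearest gene was also the gene with the 5′ end nearest to the cluster centre, a rule under which 0.885% of genes were reached.

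Among stem/progenitor markers, 2 of 6 genes were nearest to a cluster, Cd44 and Trp63. The count was 3 of 6 by the nearest 5′ end, with Sox9 added, and 0 of 6 among regions below the median q-value. In that list no 2 regions of either cluster were linked, and 0.0532% of all genes were reached. Cd44 encodes a hyaluronan receptor, and its cluster of 5 lay 42.1 kb away on chr2:102943812-102959661. The folds of its regions were 7.91, 4.78, 3.797, 5.50 and 6.01 in order along the chromosome, with the first the highest. With links of 25 kb the cluster grew to 8 regions and Cd44 was no longer the nearest gene of any cluster. Trp63 encodes p63, a factor of basal epithelial cells, and is also on the lists of epithelial factors and of pro-acinar and myoepithelial markers. Its cluster lay inside the gene on chr16:25835402-25861642, with folds of 4.74, 5.62, 9.26, 6.46 and 8.03. No region lay within 1 kb of the outermost 5′ end of Trp63, and at Cd44 that end had a fold of 7.18. Starts inside these genes were not part of this check, so it does not show that Trp63 lacks an open start. Sox9, a further stem/progenitor marker, flanked a cluster of 5 between genes, 131 kb from Slc39a11, whose median fold was 4.48, but at a distance of 313 kb.

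Of 20 epithelial factors, 2 were nearest to a cluster, Trp63 and Eya1, a transcriptional coactivator in ear and gland development. The 5 regions near Eya1 were packed into 11.3 kb on chr1:14000675-14012019, at 157 kb from the gene. Folds were 9.95, 6.23, 6.41, 8.21 and 7.97, and all 5 regions ranked below the median q-value of the list. None of the duct and cycling markers (9 genes) was nearest to a cluster, and 1 of 7 pro-acinar and myoepithelial markers was, Trp63.

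AP-1 factors join signals from growth factors and stress to transcription, and 2 of the 11 genes on the list of AP-1 and Myc were nearest to a cluster. Among regions below the median q-value this was 0 of 11, when 0.0532% of all genes were reached. Atf3, a stress-induced member, had 6 regions on chr1:191184952-191222366, the near edge 1.62 kb from the gene. Their folds ranged from 4.26 to 13.8 with a median of 7.12. The cluster at Fosb, on chr7:19308550-19345575, held 7 regions with folds from 4.20 to 7.78 and a median of 4.91. With links of 25 kb it grew to 11 regions, and its nearest gene was Ppp1r13l instead of Fosb. Jun and Myc were nearest to other clusters at that setting. At the main setting the Fosb cluster was mixed: 1 midpoint lay in Fosb, and the span reached the DNA repair gene Ercc1, whose internal start is shown above.

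Of the transcription factor families whose motifs the study names, RUNX had 1 of 3 genes nearest to a cluster and SOX had 1 of 18. Both counts were 0 among regions below the median q-value of the list, when 0.0532% of all genes were reached. Runx1, a factor of blood and epithelial progenitors, held 7 regions on chr16:92608073-92631311 with folds from 4.06 to 7.53 and a median of 5.22. By the nearest 5′ end, this cluster went to Clic6 and RUNX had none. The cluster nearest to Sox6 had the highest median fold of all 179, 10.1, on chr7:115310463-115340539. The regions had folds of 4.82, 12.7, 10.1, 5.72 and 11.4, so that 3 of 5 were above 10, and they lay 130 kb from Sox6. By the nearest 5′ end it went to Insc, and the SOX gene reached was Sox9. No gene of the KLF (16 genes), TEAD (4), NF-Y (3), AP-2 (5) or FOX (41) lists was nearest to a cluster. With 0.862% of all genes reached at the main setting, counts of 0 or 1 in these lists say little.

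Notch signalling releases the receptor's intracellular part, which acts on DNA through the protein RBPJ. Of 22 Notch genes, 1 was nearest to a cluster, Rbpj itself. The cluster of 6 lay 45.9 kb from the gene on chr5:53463081-53509852, over 46.8 kb. Folds ranged from 6.87 to 13.6 with a median of 8.03, and its lowest region stood above the median of all clustered regions. Among regions below the median q-value of the list, 0 of 22 Notch genes were nearest to a cluster, when 0.0532% of all genes were.

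None of 23 EGF, FGF and Wnt receptors, 10 autosomal housekeeping genes, or 6 acinar, immune, endothelial, fibroblast, neural, muscle or liver markers each was nearest to a cluster. With 0.862% of all genes reached at this setting, finding none in lists of this size says little. By the nearest 5′ end, 1 of the 10 housekeeping genes was reached, Rplp0. With links of 25 kb, when 2.70% of all genes were nearest to a cluster, the count was 5 of 22 Notch genes, 5 of 41 FOX, 3 of 16 KLF, 4 of 20 epithelial, 3 of 11 AP-1 and Myc, and 1 of 6 stem/progenitor genes. At that setting 2 of 23 receptors, 1 of 9 duct and cycling markers and 1 of 5 AP-2 genes were reached too. When genes that flank or overlap a cluster were counted as well, 2.27% of protein-coding genes were reached. Further list genes were then Klf10, Sox4, Sox9, Csrp1, Lgr4, Rplp0 and Erg. Klf10, a TGF-beta-induced repressor, lay 90.7 kb from a cluster of 6 whose nearest gene was Azin1, with a median fold of 9.43. Csrp1, a myoepithelial marker, lay 7.35 kb from the cluster nearest to Phlda3.

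**Figure D4:**
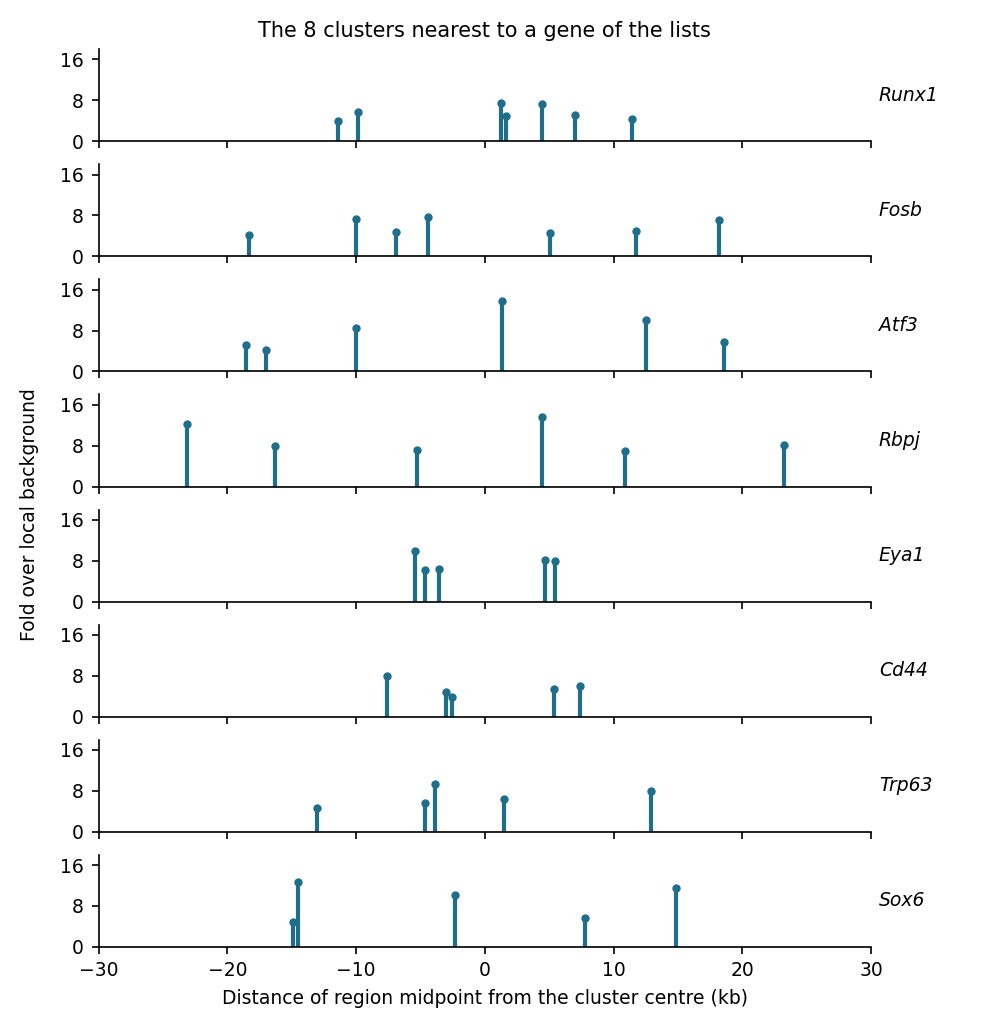
Fold over local background of each region in the 8 clusters nearest to a listed gene, by distance (kb) of its midpoint from the cluster centre. The Eya1 regions crowd into 11.3 kb, while the Rbpj regions spread over 46.8 kb and reach 13.6.

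The labelled cell type was read from gene starts, which the rule kept out of the clusters. A region within 1 kb of the outermost 5′ end was present for 39.5% of autosomal protein-coding genes. Such an open start was found for 5 of 6 stem/progenitor markers and 6 of 9 duct and cycling markers, but for 2 of 7 pro-acinar and myoepithelial markers. It was found for none of 6 acinar, endothelial, fibroblast or liver markers each, and for 1 of 6 immune, neural and muscle markers each. Starts inside a gene were not counted. Among the genes nearest to clusters, 86 of 178 had an open start (48.3%, 95% Wilson interval 41.1 to 55.6). Of 7270 genes at least 29.3 kb long, which is the lower quartile of the lengths of the genes nearest to clusters, 44.5% had one (43.4 to 45.7).

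Further nearest genes are given by role. They were chosen after their values were seen and from no fixed list, so they are examples of single clusters, and no share of a pathway can be read from them. Several encode proteins of cell adhesion, cytoskeleton and matrix. Itgb6, an epithelial integrin subunit, held 5 regions with a median of 5.81 and a highest fold of 15.6. Lamc1, a laminin chain of the basement membrane, had a median of 7.68 and a highest fold of 16.9. Perp, a desmosome protein and p63 target, had 6 regions with a median of 5.55, and Ctnnd1, the p120 catenin of adherens junctions, had 6 with a median of 6.23. Plec, a linker of keratin filaments, was low throughout, from 3.50 to 5.39.

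Vav3 and Net1, exchange factors of small GTPases, were nearest to clusters of 7 regions each, and Trio, another, held 6. Their median folds were 5.76, 6.84 and 5.73. The Hippo pathway restrains YAP, a coactivator of TEAD factors. Ptpn14, a phosphatase that binds YAP, held 7 regions with a median of 6.39, and Amotl1, an angiomotin, held 5 with a median of 7.52. The 6 regions beside Ccn1, a YAP target, had a median of 8.12.

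In growth factor signalling, the cluster nearest to Tgfbr2, a TGF-beta receptor, lay 184 kb away and had a median of 9.18 and a highest fold of 17.9. Fst, which encodes the activin antagonist follistatin, had 7 regions at 160 kb with a median of 8.34. Lrig1, a negative regulator of EGF receptors and marker of epithelial stem cells, held 6 regions with a median of 7.13. Edar, the ectodysplasin receptor, held 6 with a lower median of 4.74. A region of 73 bp among them had a fold of only 1.83 and a −log10 q of 0.315. Among DNA-binding factors not on the lists, Etv6, an ETS repressor, held 7 regions over 48.0 kb with a median of 7.27, and Ets1 held 6 with a median of 5.14. Kmt2e, a chromatin regulator, was nearest to 7 regions with a median of 7.59 and a highest fold of 15.2.

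Clustered regions had a lower median fold than other distal regions and a higher median −log10 q. The median fold was 6.41 (quartiles 5.16 and 8.21), against 6.95 (5.63 and 8.99) for 20397 other distal regions and 7.62 (5.89 and 10.2) for regions near gene ends. The medians of clustered and other distal regions differed by -0.53, with a different rule for links changing its size but not its sign. Median widths were 387, 388 and 440 bp in the same order. Several summits were called in 67.9%, 68.2% and 74.0%. A q-value above 0.05 was listed for 6 of the 1009 clustered regions and 40 of the 20397 others. The median −log10 q was 25.95 in clusters and 24.7 in other distal regions, the median IDR score 937 and 913, and the share with a score of 1000 was 43.9% and 41.0%. By chain size, the median fold was 7.03 for lone regions, 6.43 for clusters of 5, 7.30 for clusters of 8 and 3.34 for the chain of 13. No p is given, because regions of 1 list are not replicates and their nearness was used to choose them.

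**Figure D5:**
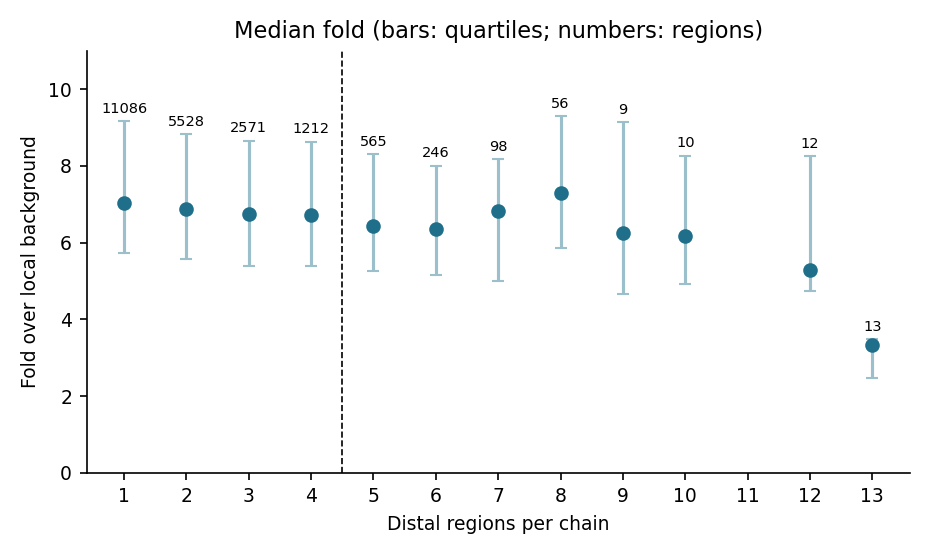
Median fold over local background (points) with quartiles (bars) of distal regions by the size of their chain, with the number of regions above each bar and clusters right of the dashed line. Medians lie between 5.29 and 7.30 except for the 13 regions at Sfi1, at 3.34.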

How the data were processed

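Bulk ATAC-seq libraries of 4 mSGO samples were sequenced by the authors, who used the ENCODE ATAC-seq pipeline for alignment and peaks. They deposited 1 list, taken to be the consensus of all organoid samples, although neither of its counts equals the number of peaks in the paper. Its 69545 lines hold, as deposited, an IDR score (capped at 1000), a fold (ratio) over local background, the −log10 of the p-value (not used) and of the q-value, and a summit offset as another distance in bp. The pipeline version and filters are not given in the sources used here. Lines with the same coordinates were joined and kept the values of the strongest summit.

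The submitters' processing notes name GRCm39 and HOMER. However, a region lay within 1 kb of 38.3% of 21436 protein-coding 5′ ends placed on GRCm38.p6, and of 5.04% of 21757 placed on GRCm39, so the list was read as GRCm38 and coordinates are printed on that reading. Gene positions came from a RefSeq table of GRCm38.p6 (49939 genes on the chromosomes used), and strand from RefSeq promoter windows or, by name, GENCODE M39. The nearest gene was the protein-coding gene holding most midpoints of a cluster, or otherwise the one closest to its span. The promoter windows covered 16456 of 20661 autosomal protein-coding genes and 138 of the 178 nearest ones. Peak sequences elsewhere were not analysed here.

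Clusters were named if among the 10 with most regions, the 3 longest, the 3 densest or the 3 of highest median fold among those of 8 or more, or if nearest to a listed gene. Ties in number of regions were ordered by shorter span. Other names were chosen after their values were seen. The members and lists were chosen with earlier results of these data known. The 2 housekeeping genes on X were left out. Alternatives covered links, cluster size, gene ends, the regions used and how genes were assigned. The chaining was tested on simulated data. The tools were pandas 2.3.3 and numpy 2.4.6 under Python 3.11.15, with scipy 1.17.1 for intervals and matplotlib 3.10.9 for plots.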

Additional observations from a re-analysis of the deposited data

How the results depend on the processing

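The number of clusters moved with the linking distance, the least number of regions and the regions or lines counted. Against 179 clusters with 1009 regions, links of 5 kb gave 14 clusters with 75 regions (0.350% of distal regions), and links of 25 kb gave 583 with 3643 (17.02%). Asking for 4 regions gave 482 clusters with 2221 regions (10.4%), and asking for 8 gave 11 with 100 (0.467%). The stricter list, of regions below the median q-value, held 11 clusters with 58 regions (0.586%), and regions with an IDR score of 1000 formed 7 with 38 (0.431%). Counting every line gave 2475 clusters with 16787 lines (37.6%), and adding regions near genes gave 415 with 2380 (7.58% of 31385 autosomal regions). Each share in this paragraph is of the regions or lines that its own setting could chain. The share was 5.10% with gaps measured between edges, 5.30% and 3.97% with distal set at 500 bp and 2 kb, and 5.83% with protein-coding ends only. Of 2 settings chosen after seeing the data, leaving out regions at internal starts gave 4.40%, and keeping clusters of median fold 5 or more gave 4.33%. At 2 kb, 137 of the 179 clusters were still overlapped by a cluster, and without internal starts 159 were.

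The median span moved from 24.9 kb to 9.12 kb (5 kb links), 46.1 kb (25 kb links), 18.6 kb (4 regions), 41.6 kb (8 regions) and 8.55 kb (every line). The largest cluster held 7 regions with 5 kb links, 8 in the stricter list, 7 at a score of 1000 and 34 lines when each line counted. The difference in median fold from other distal regions, -0.53, became -1.55, -0.23 and -0.89 with 5 kb links, 25 kb links and the stricter list. That in median width, -1 bp, became -76 bp with 5 kb links and -62.5 bp in the stricter list. It turned positive with 25 kb links (9 bp) and with 8 regions (10.5 bp). The difference in the share with several summits, -0.36 percentage points, became -5.58 with 5 kb links, 4.79 with 8 regions and -11.7 in the stricter list.

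In the stricter list, 0 genes of the RUNX, SOX, AP-1 and Myc, Notch, stem/progenitor, and pro-acinar and myoepithelial lists were nearest to a cluster, while Eya1 still was, and the share of all genes was 0.0532%. RUNX also had 0 by the nearest 5′ end, and 0 by flanking genes, a setting that by construction leaves out a gene holding the whole cluster, as Runx1 does. With 25 kb links the share was 12.2% of FOX genes, 22.7% of Notch genes and 2.70% of all genes. At that setting stem/progenitor markers fell from 2 to 1, with Cd44 lost, and the list of AP-1 and Myc went from 2 to 3 but lost Fosb. The share of all genes was 1.69% by flanking genes, 1.04% by the gene nearest to at least 1 region, and 2.20% with clusters of 4.

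No paired analysis was possible because the list gives no value per sample. Leaving out a replicate was not run on this list, and depth per sample is unknown.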
